A study of Mus musculus with 16 samples.

Results

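The vehicle-treated neuron cultures are the 4 control libraries of a 16-library study of primary neurons from the brains of C57BL/6 mice at postnatal day 0. They received Dulbecco's phosphate-buffered saline (DPBS), the carrier of the peptides, and were chosen by their control label alone, with no measured value used. The other 12 libraries come from the same kind of culture given 1 of 3 peptides, NP24, Tβ10 or Tβ4, with 4 libraries each, attributed by the study to the subcommissural organ, a secretory gland of the ventricular roof. No dose, time in culture or brain region is given in the sources used here. Nor is it said whether replicates are separate cultures or animals, so each p measures the spread between these libraries, which may be technical.

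Neurons taken from newborn brain arrive as a mixture of young glutamatergic and GABAergic cells, together with progenitors and glia that can survive or divide in the dish. Total RNA libraries keep unpolyadenylated and unspliced RNA as well as mature messages, so long introns contribute reads alongside exons. Such a baseline shows which cell types, receptors and stress genes were present before any peptide is compared.

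The vehicle libraries held 18564148 to 26717821 reads in genes, and 29761 to 31888 genes had a read. In all 4 libraries 25006 genes were detected with at least 1 read, of which 15810 were protein-coding and 4611 were long non-coding RNAs (lncRNAs). A count of 0 allows up to 3 reads, which is 0.112 to 0.162 reads per 1000000 across these libraries and covers counting error only. All 371 tested genes that lie in an intron of 1 other gene, without sharing an exon, had no more reads than that host in every vehicle library, 225 of them on the host's opposite strand. Reads thus appear to have been counted over whole gene spans, on either strand and for every overlapping gene. Levels per length are therefore given as a bracket, in reads per 1000000 reads in genes, per kb of summed exon ("exon level", the upper value) or per kb of gene span ("span level", the lower value). Genes for which 25% or more of the reads could belong to an overlapping gene are called overlap-uncertain.

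Protein-coding genes of the nucleus took 75.6 ± 1.91% of the reads (mean ± SD, n = 4). The total behind this and every later share is the summed gene counts. In it a read in overlapping genes appears to count for each of them, so classes and genes can share reads. Mitochondrial ribosomal RNA came next with 14.2%, 10.5%, 9.32% and 11.1% of the reads in vehicle libraries 1 to 4. Library 1 was the highest and library 3 the lowest. The lncRNAs took 7.84 ± 0.404%, the mitochondrial messages 1.06 ± 0.139% and the annotated microRNA genes 2.01 ± 0.199%. The 10 genes with the most reads held 18.2% to 22.8% of a library, and between 678 and 793 genes held 1 of every 2 reads.

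**Figure D1:**
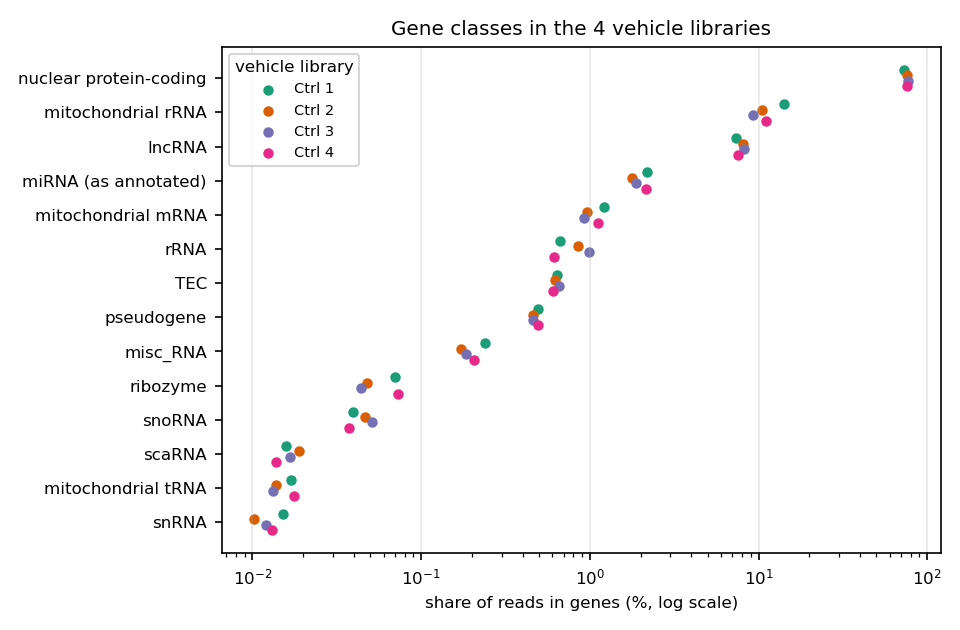
Share of reads in genes by gene class, in percent on a log axis, with 1 point per vehicle library. A read in overlapping genes appears to count for each of them. Nuclear protein-coding genes lie at 72.8% to 77.2% in the 4 libraries, and mitochondrial rRNA is the next class at 9.32% to 14.2%.

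Most of the genes with the most reads were non-coding. The mitochondrial ribosomal RNAs mt-Rnr2 and mt-Rnr1 took 7.11% and 4.18% of the reads, and the nuclear-retained lncRNA Malat1 took 1.41 ± 0.0925%. The protein-coding gene Zc3h7a took 2.12%, but Gm23935, a gene of 57 bases inside one of its introns, matched 87.8% to 89.5% of its reads. Without those reads Zc3h7a kept 57094, 42289, 45064 and 60811 normalized counts (the authors' counts divided by 1 size factor per library) in vehicle libraries 1 to 4. Gm23935 itself had 451504, 360438, 382418 and 437177 normalized counts, and it made up 93.6% to 94.1% of all reads in annotated microRNA genes. Its sequence is shown because a single short locus carries nearly the whole class, and because 3 further loci hold nearly the same sequence, so that reads may be shared among them. The next lines give the GENCODE M21 sequences of these 4 loci, 5′ to 3′, on GRCm38, with a capital for the single base that differs from Gm23935 in a copy of equal length.
Gm23935: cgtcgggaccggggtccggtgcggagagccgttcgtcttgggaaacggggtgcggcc
Gm24270: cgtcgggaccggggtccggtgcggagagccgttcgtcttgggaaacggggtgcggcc
Gm24187: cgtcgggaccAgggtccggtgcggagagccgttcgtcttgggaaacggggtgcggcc
Gm25911: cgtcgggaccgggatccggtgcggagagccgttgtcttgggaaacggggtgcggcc
Gm23935 lies at chr16:11144125-11144181 on the plus strand and had 1744523 reads over the 4 libraries. Gm24270, at chr9:56223715-56223771 on the minus strand, has no differing base and had 8507 reads. Gm24187, at chr13:9834469-9834525 on the minus strand, carries G11A, counted from the 5′ end, and had 1224 reads. Gm25911, at chr1:167340369-167340424 on the minus strand, is 56 bases long and had 3757 reads. How many reads of each locus belong to the other copies cannot be told apart in these counts.

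Of the other non-coding genes among the 12 with the most reads, CT010467.1, annotated as rRNA, took 0.772%. It was nearly the whole class annotated as rRNA outside mitochondria, at 0.777 ± 0.173%. That share goes by annotation alone and need not hold every rRNA read. The lncRNA models Gm26917, Gm42418 and AY036118 took 1.25%, 0.530% and 0.339%. They lie beside or over CT010467.1 on chromosome 17 and count toward the lncRNA share. AY036118 had 60455, 82892, 107810 and 41987 normalized counts in vehicle libraries 1 to 4, a coefficient of variation (CV) of 38.8%. Gm42418 and CT010467.1 were likewise highest in library 3 and lowest in library 4. AY036118, Gm42418 and CT010467.1 overlap one another, AY036118 lying wholly within other annotated exons, and all 3 are overlap-uncertain. They may therefore count the same reads, and their shared order of libraries is not independent. The mitochondrial message mt-Co1, a subunit of cytochrome c oxidase, took 0.255%, and the microtubule-associated protein gene Map1b took 0.339%. Gm20388, with 0.289%, is a model that spans many other genes, Tubb3 among them, and is overlap-uncertain.

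Ordering the nuclear protein-coding genes by exon level put many gene models and overlapping genes on top. Of the 25 highest, 14 were unnamed models, 17 were overlap-uncertain and 6 had under 200 bases of exon, which left 7 with none of these. Among named genes that were not overlap-uncertain, 9 stood in the 25 highest by both exon and span. Actin Actb had an exon level of 416.8 ± 47.9 and a span level of 307 ± 35.0 (SD, n = 4 here and for every level below). The chaperone Hsp90ab1 reached an exon level of 279 ± 21.1 and a span level of 152 ± 11.5. The tubulins Tuba1a, Tubb5 and Tubb2b had exon levels of 217 ± 18.4, 196 ± 11.8 and 183 ± 9.38, and span levels of 101, 149 and 113. The elongation factors Eef2 and Eef1a1 had exon levels of 176 ± 23.9 and 199 ± 34.2. The ribosomal protein gene Rplp1 and parathymosin, Ptms, completed the group. Long neuronal genes such as Rbfox1 ranked high by exon level alone, at 395 ± 75.2, against a span level of 1.14 ± 0.217. Short genes of young neurons ranked high by span, among them Nnat at 104, Sox11 at 84.9 ± 8.56, Sox4 at 82.2 ± 1.92 and Stmn1 at 50.7 ± 0.618.

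Lists of markers, receptors and stress genes, 30 in all, covered 488 genes, and 485 of them were in the table; Hbb-y, Hoxa4 and Hoxa5 were not analysed here. A gene was called present where its exon level was at least 1 in all 4 vehicle libraries. By that rule 292 of the 485 genes were present, 14 had no read in any of the 4 libraries, and 55 were overlap-uncertain. By span level 155 of the 485 reached the same threshold, so presence is an upper count. With 4 bulk libraries, fewer cells of a type and less RNA per cell cannot be told apart.

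Neuronal genes were present at high levels with little spread. Of 20 pan-neuronal genes 19 were present, with a median exon level of 51.9. Tubb3, the neuron-specific tubulin, had exon levels of 148, 152, 149 and 145 in vehicle libraries 1 to 4. Its 4 values lay close together, with a CV of 2.33%. The axonal and dendritic microtubule proteins Mapt and Map2 had exon levels of 93.7 ± 4.55 and 81.6 ± 5.43, and the growth cone gene Gap43 had 107 ± 15.7. Doublecortin, Dcx, a gene of migrating young neurons, had an exon level of 59.8 ± 2.94. The neurofilament heavy chain Nefh, which accumulates as axons mature, was the 1 list member not present, at 1.03, 0.620, 0.984 and 0.647.

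Markers of both glutamatergic and GABAergic neurons were found. All 18 excitatory genes were present, with a median exon level of 11.8. The NMDA receptor subunit Grin2b had exon levels of 41.0, 52.97, 54.8 and 48.8 in libraries 1 to 4, lowest in library 1. Among the transcription factors, Neurod6 had 38.9 ± 2.13, Mef2c 37.7 ± 6.38 and Zbtb18 34.7 ± 2.38. The vesicular glutamate transporter Slc17a7, a marker of mature cortical excitatory synapses, was the lowest of the list by exon level, at 1.15, 1.21, 1.48 and 1.87. Library 4 was its highest. Its relative Slc17a6 had exon levels of 4.69, 6.75, 6.29 and 3.99, and library 4 was its lowest. By span Slc17a7 was not the lowest, at 0.631 ± 0.146 against 0.597 ± 0.143 for Slc17a6.

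Of 20 inhibitory genes 18 were present, with a median exon level of 8.18. The GABA-synthesizing enzyme Gad1 had exon levels of 19.7, 23.1, 22.1 and 23.3 in vehicle libraries 1 to 4, lowest in library 1, and Gad2 had 19.96 ± 1.61. The neuregulin receptor Erbb4 led the list at 97.6 ± 11.3 by exon but only 1.12 ± 0.130 by span. Somatostatin, Sst, a neuropeptide of one interneuron class, had exon levels of 68.7, 60.5, 61.4 and 90.2, highest in library 4. The interneuron genes Pvalb and Vip, both markers of classes that mature after birth, were not present, with 7 and 28 reads over the 4 libraries. Of 16 genes of dopamine, serotonin, noradrenaline, acetylcholine and glycine neurons only the vesicular monoamine transporter Slc18a2 and the transcription factor Isl1 were present, and the serotonergic factor Fev had no read. Tyrosine hydroxylase, Th, had 4.73, 37.5, 4.84 and 3.48 normalized counts, and library 2 stood apart.

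**Figure D2:**
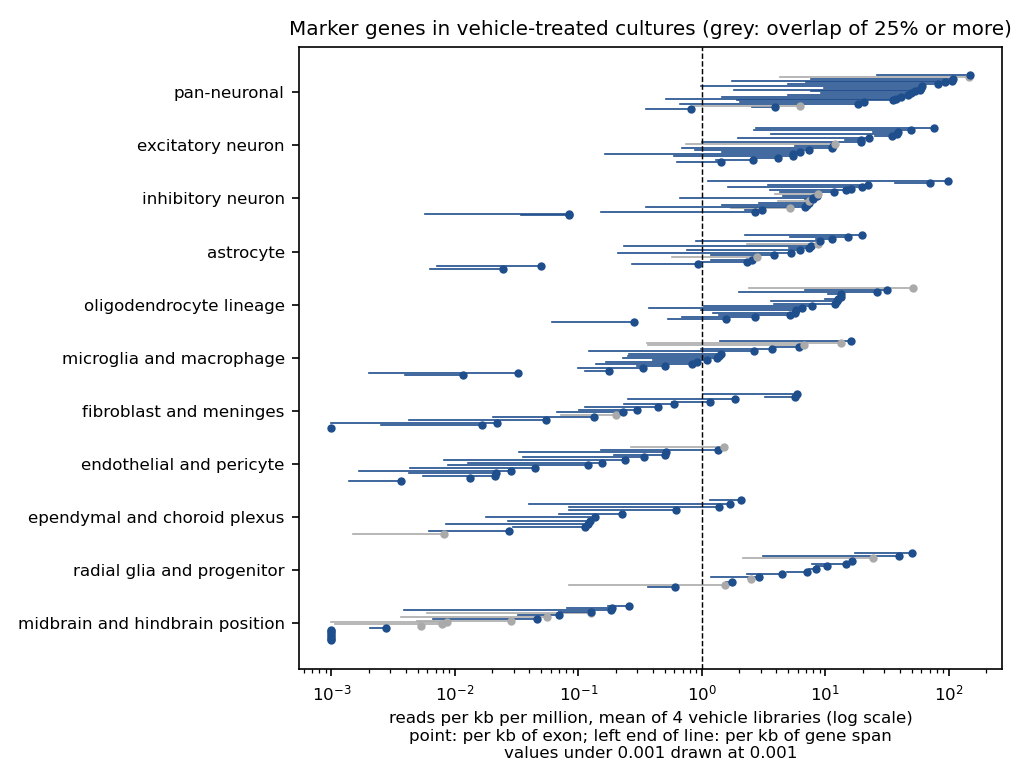
Mean level of each marker gene over the 4 vehicle libraries, in reads per 1000000 per kb on a log axis. The point is the exon level, the left end of its line is the span level, grey marks genes that are overlap-uncertain, and the dashed line is the level of 1 used to call presence. Most neuronal, astrocyte, oligodendrocyte and radial glia points lie right of the line, and every point of the midbrain and hindbrain list lies left of it.

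The astrocyte and oligodendrocyte lineage lists had lower medians than the pan-neuronal list. This held also by span, at 0.877 for astrocytes, 1.70 for the oligodendrocyte lineage and 2.32 for pan-neuronal genes. By exon the oligodendrocyte median, 9.38, lay between the excitatory 11.8 and the inhibitory 8.18. By span it lay below both, at 1.73 and 2.56. The radial glia and progenitor list had a median of 7.78 by exon and 2.90 by span, the latter above the pan-neuronal one. Of 16 astrocyte genes 13 were present, with a median exon level of 5.71. The glutamate transporter Slc1a3, shared by astrocytes and radial glia, had exon levels of 17.6, 18.0, 22.7 and 21.6 in vehicle libraries 1 to 4. Libraries 3 and 4 were its highest. Glutamine synthetase, Glul, had 15.2 ± 1.88, the transcription factor Sox9 11.3 ± 1.00, and the second transporter, Slc1a2, 9.003 ± 0.842. Gfap, the intermediate filament of astrocytes, had exon levels of 2.68, 2.86, 4.26 and 5.55, again with libraries 3 and 4 on top. The water channel Aqp4, the angiotensinogen gene Agt and the connexin Gjb6 were the 3 members not present.

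Oligodendrocyte lineage genes spanned progenitors and myelin. Of 16 genes 15 were present, with a median exon level of 9.38. The progenitor receptor Pdgfra had exon levels of 5.34, 5.39, 5.23 and 6.59, highest in library 4. The differentiation-stage receptor Gpr17 had 13.4 ± 2.77 and the transcription factor Olig1 13.4 ± 2.20. Among myelin genes, Cnp had 31.4 ± 3.47 and Mbp 26.2 ± 2.04. The late myelin gene Mobp was the 1 member not present, at 0.282 ± 0.140. Bcas1 led the list at 51.6, but it was overlap-uncertain.

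Microglia were represented near the presence level. The receptor Csf1r, on which microglia depend, had exon levels of 0.952, 0.707, 1.11 and 0.867, and 7 of 17 genes of the list were present. The receptors Cx3cr1 and P2ry12, both present, were overlap-uncertain. The macrophage gene Cd68 had 6.08 ± 1.66 and the lysozyme Lyz2 5.08, 2.11, 2.59 and 5.06. The complement genes C1qb and C1qa had 1.42 and 1.11, and Tmem119, a marker of mature microglia, had 2 reads in all.

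Markers of fibroblasts, vessels and ventricle lining were sparse. The collagen gene Col1a1, which defines fibroblasts, had exon levels of 0.525, 0.410, 0.844 and 0.609 and was not present. Of 14 fibroblast and meninges genes 3 were present, namely fibronectin, Fn1, at 5.90 ± 0.887, Thy1, also a gene of neurons, at 5.67 ± 1.19, and Pdgfrb at 1.85 ± 0.249. The small proteoglycan gene Lum had no read. Of 14 endothelial and pericyte genes only the overlap-uncertain Notch3 was present, and the endothelial junction gene Cldn5 had 2 reads. Among 11 ependymal and choroid plexus genes the cilia factor Foxj1 had 2.08 ± 0.512 and Rsph1 was the other one present, while transthyretin, Ttr, had 0, 0, 0.806 and 13.04 normalized counts. Of 6 red blood cell genes only the overlap-uncertain Alas2 was present, and the haemoglobin gene Hbb-bs had 23 reads in all.

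Genes of progenitors and of division were also found. Of 14 radial glia and progenitor genes 12 were present, led by the lipid-binding protein Fabp7 at 49.98 ± 3.15, the phosphatase Ptprz1 at 39.2 ± 5.22 and Sox2 at 16.5 ± 0.841. Of 16 cell cycle genes 14 were present, among them the proliferation marker Mki67 with exon levels of 7.10, 9.47, 8.49 and 10.3 and the topoisomerase Top2a with 5.83 ± 0.864. Library 1 was the lowest for both.

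The positional genes were those of the forebrain. The cortical factor Lhx2 had exon levels of 14.4, 16.3, 16.9 and 14.9 in vehicle libraries 1 to 4. Of 10 forebrain genes 8 were present, whereas none of 20 midbrain and hindbrain genes was. Of these 20, Hoxb5, Hoxb4, Hoxa2, Hoxb8, Hoxc8, Hoxd4 and Atoh1 had no read, and the highest member, Gbx2, had 0.259.

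Most glutamate and GABA receptor genes were present by exon level, but few by span. All 11 AMPA, kainate and delta receptor genes were present by exon level, with a median of 30.0, and 3 of 11 by span. The AMPA subunit Gria1 had exon levels of 73.1, 78.1, 86.6 and 72.1 and Gria2 had 41.8, 48.8, 46.7 and 42.4, with both genes lowest in libraries 1 and 4. Of 7 NMDA receptor genes 5 were present by exon level and 2 by span. Of 8 metabotropic glutamate receptors 7 were present by exon level, all but Grm6, and 0 by span. The metabotropic receptors Grm7, Grm5 and Grm3 had 39.6 ± 7.95, 27.2 ± 3.74 and 25.3 ± 2.47 by exon. Of 21 GABA and glycine receptor genes 1 was present by span and 14 by exon level, among them the GABA-B subunits Gabbr1 at 28.8 ± 0.475 and Gabbr2 at 19.9 ± 2.33.

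Among acetylcholine receptors 6 of 15 were present by exon level and 1 of 15 by span, led by the muscarinic Chrm3 at 9.95 ± 1.84 and the nicotinic Chrna7 at 8.94 ± 1.26, while Chrna6 had no read. Among monoamine receptors the count depended on the measure of presence. By exon level 4 of 29 were present, against 0 by span, 17 without division by length and 20 at an exon level of at least 0.1. The highest by exon level was the dopamine receptor Drd2 at 3.96 ± 0.826. Among neuropeptide and opioid receptors 10 of 30 were present by exon level and 4 by span, led by the PACAP receptor Adcyap1r1 at 14.98 ± 1.62 and the neurotensin receptor Ntsr1 at 13.02 ± 1.28. Among growth factor receptors 17 of 23 were present by exon level and 4 of 23 by span. The BDNF receptor Ntrk2 had exon levels of 28.3, 29.8, 32.9 and 31.3 and a span level of 1.80 ± 0.117.

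Stress genes were expressed without any peptide. Of 24 genes of the integrated stress response and the unfolded protein response 23 were present by exon level, against 292 of all 485 list genes. How many genes outside the lists reach the presence level was not counted, so these counts do not set stress genes apart. The median of the 24 genes was 9.15 by exon and 2.83 by span. The endoplasmic reticulum chaperone Calr led them at 59.9 ± 4.90 by exon. The transcription factor Atf4, the effector of the integrated stress response, had exon levels of 39.7, 28.3, 27.2 and 33.1 in vehicle libraries 1 to 4. Of 17 targets of the antioxidant factor NRF2 16 were present, all but Nqo1. The ferritin gene Fth1 had exon levels of 50.8, 35.7, 30.2 and 40.6, and haem oxygenase, Hmox1, had 12.1, 5.46, 4.89 and 8.30. Library 1 was the highest and library 3 the lowest for these 3 genes.

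Most heat shock and p53 genes were also present. Of 14 heat shock genes 10 were present, and the constitutive chaperone Hspa8 had 67.7 ± 5.96, whereas the inducible Hspa1b had 0.657 ± 0.0388. Of 17 p53 and apoptosis genes 14 were present, and the cell cycle inhibitor Cdkn1a had exon levels of 10.1, 5.43, 5.01 and 5.96. Of 20 immediate early genes, which neurons switch on with activity, 17 were present. Among them Egr1 had 18.6 ± 1.31, Fos 7.85 ± 1.34 and Arc 1.66, 2.15, 1.92 and 3.75, highest in library 4. Of 15 interferon and inflammation genes 2 were present, among them Nfkbia at 2.86 ± 0.570, and Tnf, Il6 and Ccl2 had no read.

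The cultures expressed the mouse genes that encode the β-thymosins given to other cultures. Tmsb4x had exon levels of 117, 92.6, 107 and 88.7 and Tmsb10 had 97.3, 91.7, 95.7 and 89.2 in vehicle libraries 1 to 4. Both were highest in library 1 and lowest in library 4. Ptma had 67.8 ± 3.81, and Tmsb15a had no read. Sspo, which encodes the main secreted glycoprotein of the subcommissural organ, was not present, with 103 reads over the 4 libraries.

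Related genes were set against each other in 16 pairs. In 15 of them the exon levels had the same order in all 4 vehicle libraries, which gave a 2-sided exact permutation p of 0.13, the smallest that 4 libraries allow, so that no pair could pass 0.05. The adjusted value over the 16 pairs was 0.133. In 11 pairs the order was the same by exon and by span. Subunits known from early development stood above the late ones by both lengths in the NMDA receptor, sodium channel and neurofilament pairs. The NMDA subunit Grin2b stood above Grin2a by 5.53-fold by exon and 6.96-fold by span, as log2 2.47 ± 0.18 and 2.80 ± 0.18. The sodium channel Scn2a stood above Scn1a by 2.75-fold and 3.56-fold, and the neurofilament Nefm, overlap-uncertain, above Nefh by 7.75-fold and 2.46-fold. Slc1a3 stood above Slc1a2 by 2.21-fold and 2.46-fold.

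In 2 pairs, Hspa8 over Hspa1b among them, the span level of the higher gene exceeded the exon level of the lower one in every vehicle library. Hspa8 was 101.3-fold above Hspa1b by exon and 47.9-fold by span. The order turned with the length used for 5 pairs. Gria2 was below Gria1 by exon, with a log2 difference of -0.79 ± 0.09, but above it by span, at 1.96 ± 0.09. The same held for Tmsb10 and Tmsb4x, at -0.11 ± 0.13 by exon and 0.45 ± 0.13 by span, and for Pdgfra and Mog, at -0.47 ± 0.10 and 0.23 ± 0.10. Slc12a2 over Slc12a5, carriers that load and extrude chloride in that order, was 0.22 ± 0.03 by exon and -0.03 ± 0.03 by span, and Slc17a6 over Slc17a7 was 1.92 ± 0.59 and -0.08 ± 0.58.

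The spread between the vehicle libraries exceeded counting error. Over the 13417 genes that averaged 100 or more normalized counts, the median CV was 11.4%, where counting alone gives a median of 4.12%. The median CV was 13.97% for genes with 100 to 1000 normalized counts and 7.73% for those with 1000 to 10000, and it was 9.18% above that. A CV over 20% was found for 2368 genes, or 17.6%, and one over 50% for 42. Pearson's r of log2 values across 15845 genes, which are not independent replicates, lay between 0.970 and 0.984, and the 3 lowest values were those of library 4.

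**Figure D3:**
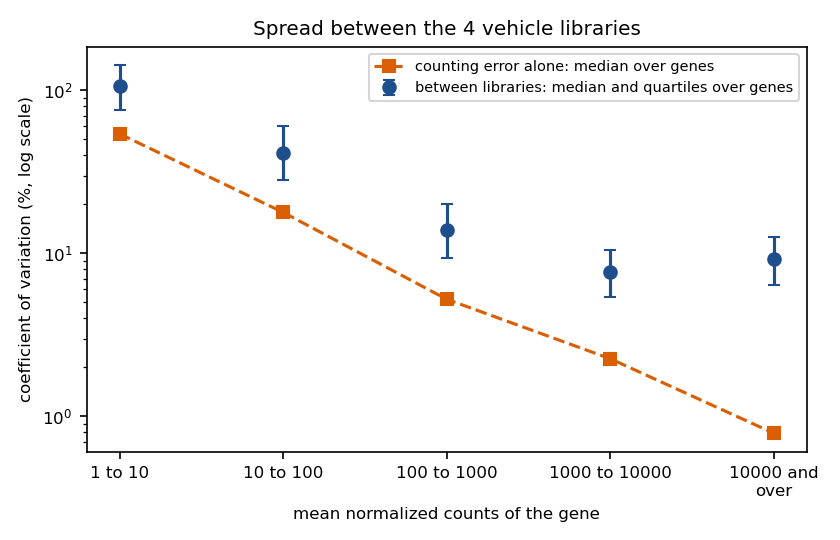
Coefficient of variation between the 4 vehicle libraries, in percent on a log axis, for genes in 5 ranges of mean normalized counts. Circles and bars are the median and quartiles over genes, and squares are the median expected from counting alone. The circles lie above the squares in every range, at 13.97% against 5.23% for 100 to 1000 counts.

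The genes with the largest CV did not come from 1 list. Frmd8 varied most among the named genes that averaged 100 or more normalized counts, with 187.8, 273, 855 and 259 normalized counts in vehicle libraries 1 to 4, a CV of 78.6%. The axonemal dynein Dnah6 had 89.8, 90.8, 34.7 and 236 normalized counts, and the signal recognition particle gene Srp54a 42.5, 135.8, 220.0 and 46.1. The carboxylate transporter Slc13a3, the integrin Itga2 and the phosphodiesterase family gene Enpp4 followed with CVs of 75.8%, 67.6% and 64.9%. The small nucleolar RNA Snord21 had 258, 754, 674 and 156 normalized counts. The homeobox gene Dbx2, the DNA repair gene Mgmt, the mitotic kinase Plk1, Metrn, Tmem132c, Efcab7, Arhgap22 and the potassium channel Kcnc4 completed the 15, with CVs of 55.0% to 57.7%. Metrn and Efcab7 were overlap-uncertain. Of the 15, 11 were highest in library 4, 3 in library 3 and 1 in library 2.

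Members of a list often shared the library in which they were highest. Over all 15845 genes averaging 50 or more normalized counts, 21.5%, 22.0%, 23.5% and 33.1% were highest, and 25.3%, 22.1%, 23.3% and 29.3% lowest, in vehicle libraries 1 to 4. Of 16 NRF2 genes 14 were highest in library 1 and 11 were lowest in library 3, with median log2 deviations from the 4-library mean of 0.20 and -0.29. Of 23 stress response genes 15 were highest in library 1 and 13 lowest in library 3, at 0.16 and -0.19. Library 1 also had the lowest depth and the highest share of mitochondrial rRNA, and the part of these in the stress levels was not tested.

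Activity and glial genes followed other libraries. Of 20 immediate early genes 12 were highest in library 4 and 13 lowest in library 2, at 0.18 and -0.26. Of 15 oligodendrocyte genes 12 were lowest in library 3. Of 14 astrocyte genes 8, and of 13 radial glia genes 9, were highest in library 4, where 13 of 20 pan-neuronal genes were lowest and none was highest. Of 7 metabotropic glutamate receptors 6 were highest in library 3 and 6 lowest in library 4. These counts describe 4 libraries, and members of a list are not independent of each other.

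**Figure D4:**
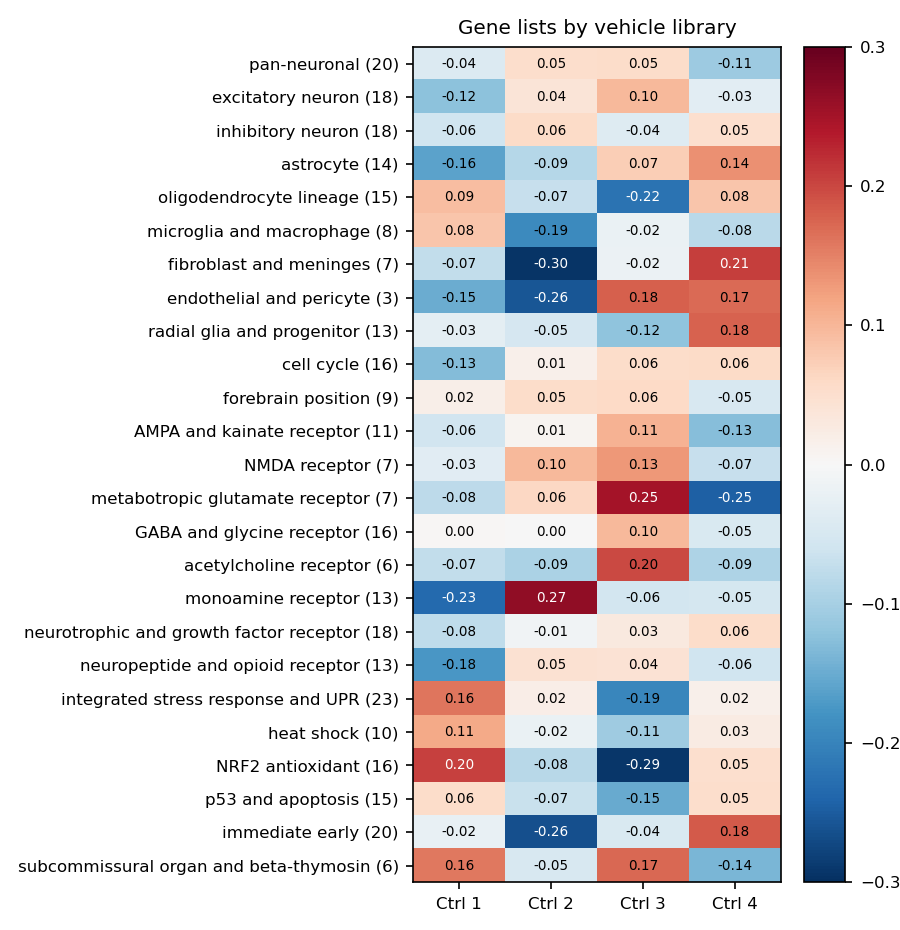
Median log2 deviation of each gene list from the mean of the 4 vehicle libraries, by library, with the number of its genes that average at least 50 normalized counts in brackets. Red is above and blue below the mean. The NRF2 list is at 0.20 in library 1 and -0.29 in library 3, and the immediate early list is at 0.18 in library 4 and -0.26 in library 2.

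For 3 members of the antioxidant and stress response lists, all called lower with the peptides below, the promoters are shown. They are RefSeq sequences on GRCm38.p6, 250 bases before to 50 bases after the start, with capitals for letters that match either of 2 motifs. The antioxidant response element was searched as TGACNNNGC and the C/EBP-ATF response element, through which ATF4 and its relatives act, as TGATGNAA, each on both strands.
Slc7a11: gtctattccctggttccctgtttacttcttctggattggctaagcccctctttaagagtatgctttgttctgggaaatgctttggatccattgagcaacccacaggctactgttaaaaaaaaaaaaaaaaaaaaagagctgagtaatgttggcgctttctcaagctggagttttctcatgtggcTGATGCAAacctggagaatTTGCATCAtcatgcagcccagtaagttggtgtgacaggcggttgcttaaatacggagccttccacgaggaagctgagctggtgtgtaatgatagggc
Trib3: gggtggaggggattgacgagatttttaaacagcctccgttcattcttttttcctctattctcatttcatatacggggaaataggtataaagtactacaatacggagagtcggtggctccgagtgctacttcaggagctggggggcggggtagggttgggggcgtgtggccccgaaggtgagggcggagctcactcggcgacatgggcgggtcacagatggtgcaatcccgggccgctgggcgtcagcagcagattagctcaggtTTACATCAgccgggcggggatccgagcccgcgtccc
Srxn1: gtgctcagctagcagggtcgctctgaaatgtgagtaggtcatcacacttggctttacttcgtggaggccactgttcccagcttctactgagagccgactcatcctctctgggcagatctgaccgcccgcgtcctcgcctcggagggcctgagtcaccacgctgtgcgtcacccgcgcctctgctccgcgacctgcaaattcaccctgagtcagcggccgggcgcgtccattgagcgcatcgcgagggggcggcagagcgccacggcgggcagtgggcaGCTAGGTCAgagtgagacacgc
The windows are chr3:50443564-50443863 on the minus strand for Slc7a11, chr2:152344011-152344310 on the minus strand for Trib3 and chr2:152105274-152105573 on the plus strand for Srxn1. Slc7a11 holds the C/EBP-ATF letters at 2 places and Trib3 at 1, while Srxn1 holds the antioxidant letters at 1 place. The C/EBP-ATF letters were in 6 of 22 promoters of the stress response list and in 4.06% of all 27025 promoters searched. The search took 1 promoter of that length per gene and left out 1 chromosome, and list members without such a promoter were not counted. The antioxidant letters were in 5 of 13 promoters of the NRF2 list and in 12.5% of all. The antioxidant letters were also in 7 of 22 stress response promoters, and the C/EBP-ATF letters in 1 of 13 NRF2 promoters. A match is a description of letters, not of binding, and its part in the levels was not tested.

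The vehicle libraries were last set against the peptide libraries, with limma's moderated test of the mean of the 3 peptide groups minus the vehicle group on log2 of the normalized count plus 1, over 24232 genes. The test called 52 genes at a Benjamini-Hochberg adjusted p under 0.05, which is 0.215% of those tested. Of these, 12 were higher with the peptides, or 0.0495%, and 40 were lower, or 0.165%. The calls leaned on single libraries, since leaving out vehicle library 1, 2, 3 or 4 left 1, 5, 30 or 9 calls. Dropping 1 peptide library left between 16 and 80.

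The genes lower with the peptides included stress genes. Of 24 stress response genes 3 were lower and none higher, and of 17 NRF2 genes 4 were lower and none higher. Slc7a11 was in both lists. The lists were chosen with earlier results of these data known, so these counts are not independent of them. The 24 stress response genes summed to 26957 to 33545 normalized counts in vehicle libraries. They summed to 21677 to 28045 with NP24, 17328 to 28864 with Tβ10 and 19587 to 32803 with Tβ4. The 17 NRF2 genes summed to 14714 to 21789 in vehicle libraries. With NP24, Tβ10 and Tβ4 they summed to 10694 to 13041, 9057 to 14950 and 10845 to 20144. The median log2 differences of the lists were -0.39 and -0.32, against 0.00 over all genes tested. Marker lists of cell types had medians of either sign, at 0.27 over 15 astrocyte, 0.07 over 20 pan-neuronal and -0.20 over 16 oligodendrocyte lineage genes tested. The median was -0.74 over 16 microglia and macrophage genes tested and -0.36 over 10 fibroblast and meninges genes tested, and no gene of either list passed. The 17 microglia and macrophage genes summed to 2176 to 2361 normalized counts in NP24 libraries, 2044 to 3201 in Tβ10 libraries and 2783 to 5164 in Tβ4 libraries, and to 2771 to 3347 in vehicle libraries. The 14 fibroblast and meninges genes summed to 1606 to 1730 in NP24 libraries, 1464 to 1998 in Tβ10 libraries and 2957 to 6204 in Tβ4 libraries, and to 2172 to 2911 in vehicle libraries. In the microglia list and the fibroblast list the NP24 sums lay below every vehicle sum. In the fibroblast list the Tβ10 sums did so too, while the Tβ4 sums lay above every vehicle sum. Tmem119 had no read in any Tβ10 library, and Lum had none in any vehicle library. Mitochondrial ribosomal RNA took 7.15 ± 1.03% of the reads in NP24, 7.20 ± 1.96% in Tβ10 and 15.3 ± 6.71% in Tβ4 libraries, against 11.3 ± 2.07% in vehicle libraries (SD, n = 4 each). The part of these in the stress gene differences was not tested. The cystine transporter Slc7a11 had a lowest, median and highest value of 347, 443 and 1513 normalized counts in the 12 peptide libraries, and 2480, 1907, 1074 and 1963 in vehicle libraries 1 to 4. The groups overlapped through the Tβ4 libraries, which averaged 1150 ± 250.9, whereas the NP24 and Tβ10 libraries averaged 372 ± 23.3 and 444 ± 83.8. The log2 difference was -1.64 with an SE of 0.16 and an adjusted p of 3.13e-05 in limma. It passed when any 1 of the 16 libraries was left out, and in all 24 alternatives, where the highest adjusted p was 0.00118.

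The pseudokinase gene Trib3, a target of the stress response, ran from 21.6 to 124 normalized counts with a median of 53.9 in the peptide libraries, and was at 313, 127, 185 and 220 in the vehicle libraries. These groups did not overlap, and the log2 difference was -1.80 (SE 0.27, limma adjusted p 0.00877). The sulfiredoxin gene Srxn1 ran from 193.0 to 562 with a median of 304 with the peptides, and was at 1069, 850, 622 and 965 with the vehicle, again without overlap, at -1.38 (SE 0.22, limma adjusted p 0.0164). Over the 24 alternatives the highest adjusted p was 0.123 for both Trib3 and Srxn1, in limma without vehicle library 1, and the lowest were 1.38e-08 and 3.18e-06, in DESeq2. The amino acid transporter chain Slc3a2, the glutathione gene Gclm, overlap-uncertain, and the glutathione transferase Gsta4 were lower by log2 differences of -0.67, -0.55 and -1.40. The lysosomal glycoprotein gene Gpnmb, named for its small p, was lower by -2.45 (SE 0.33, limma adjusted p 0.00358). It averaged 53.2 ± 21.5 with NP24, 39.5 ± 18.6 with Tβ10 and 355 ± 251.3 with Tβ4, against 462 ± 109.6 with the vehicle.

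Few genes of other lists passed. Of 20 immediate early genes Egr1 and Npas4 were lower, but their means with Tβ4, 2246 and 1086 normalized counts, lay above the vehicle means of 1802 and 695. The neuritin gene Nrn1, of the excitatory list, was lower at -0.79. The astrocyte water channel Aqp4 was higher, with a range of 210.1 to 561 normalized counts and a median of 355 in the peptide libraries and values of 59.1, 167, 160.4 and 114.8 in the vehicle libraries. Its groups did not overlap, at a log2 difference of 1.58 (SE 0.24, limma adjusted p 0.00877), and the adjusted p ran between 2.47e-06, in DESeq2, and 0.120, in limma without vehicle library 1. Frem2, A2m and the gene models Gm11906 and Gm15870 were the other genes with the smallest p among those higher, at 0.65, 1.75, 0.52 and 2.43. Gm15870 lay near the floor in vehicle libraries 1 to 4, at 5.91, 1.87, 10.5 and 0.869 normalized counts. It had 11.1 to 33.6 in the peptide libraries and met the filter of 10 in 4 libraries only through them. Its difference is therefore not independent of the filter. No gene of the remaining 25 lists passed the limma test in either direction, and 2263 of all genes had an unadjusted p under 0.05. Over all genes edgeR called 56 and DESeq2 180.

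**Figure D5:**
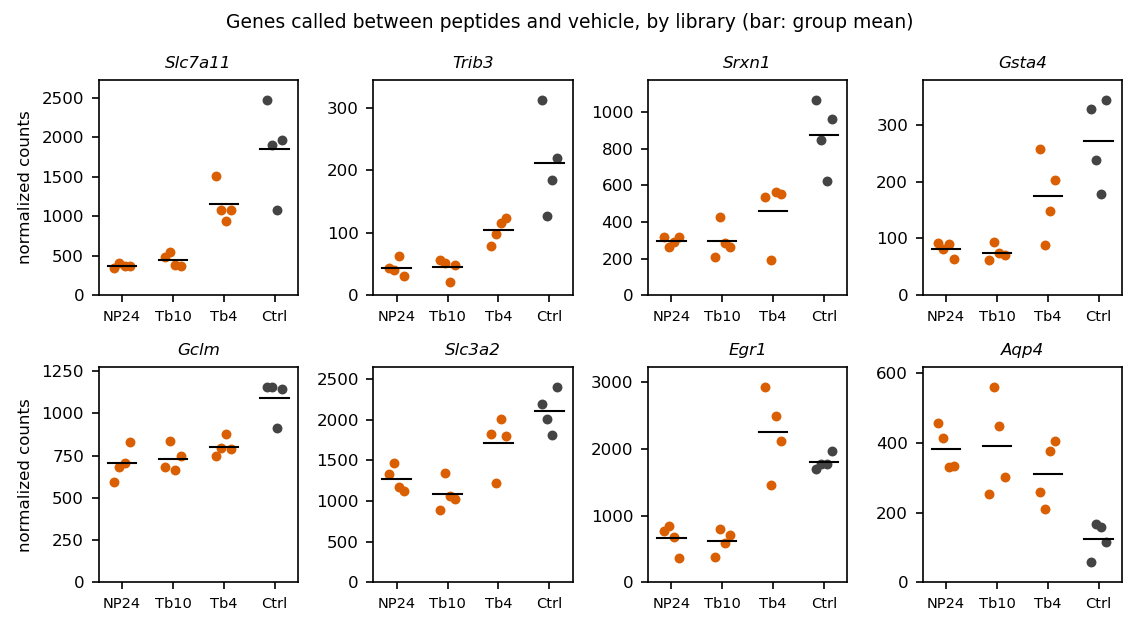
Normalized counts of 8 genes called between the peptide and vehicle libraries, with 1 point per library and a bar at each group's mean (n = 4 per group). The vehicle libraries (Ctrl) stand at the right of each panel, above every peptide library for Trib3, Srxn1 and Gclm and below every one for Aqp4, while Egr1 is highest with Tβ4.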

How the data were processed

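The authors deposited normalized values per gene for all 16 libraries, a signal made of gene counts divided by 1 size factor per library, per the file headers and values. Every nonzero value was a whole multiple of its library's step within 0.01 reads (100%), so reads were recovered. The submitters' processing notes name FastQC, HISAT or HISAT2, featureCounts, DESeq2 and GRCm38, and the labels' protocols a stranded total RNA kit. The counting feature and strand setting are not given in the sources used here; the gene-span reading is inferred from the counts. Gene lengths came from GENCODE M21, in which 45596 of 45724 identifiers were found.

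Only the 4 vehicle columns entered levels, pairs and spread. Pair ratios were log2 of the exon level plus 0.01. The comparison with the peptides used limma 3.58.1 in R 4.3.3 (trend, pseudocount 1, all 16 libraries, genes reaching 10 normalized counts in 4 or more libraries) with Benjamini-Hochberg adjustment at 0.05. On simulated data it recovered 80 of 100 genes changed by 1 and 21 of 100 changed by 0.5 on the log2 scale, and called 4 unchanged genes. The changed genes averaged 50 or more normalized counts and changed alike in all 12 peptide libraries. Recovery of lower genes, or of changes that differ between peptides, was not tested. Also tried were DESeq2 1.42.0 and edgeR 4.0.16 as count tests of those reads, other scalings, pseudocounts, filters and thresholds, and each library left out; the gene span was added after seeing the data. Genes were named by rule: highest in reads or level, list markers with the highest and unread members, pairs, the 15 largest CVs, and the smallest p values with list members that passed. Some members that these rules name are not reported here. The members, lists and rules were chosen with earlier results of these data known. Pairs of libraries differed beyond counting error (chi-square per degree of freedom 9.47 to 25.4), so none was counted as a duplicate.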

Additional observations from a re-analysis of the deposited data

Results flagged for a closer look

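In 215 values of the vehicle libraries (class shares, list sums, pair ratios and named genes), 16 had 1 library apart from the other 3. Chance gives about 1 in 20 for independent, normally distributed values. These 215 include genes picked for a large CV, and lists beside their own members, so that rate is no test of them. In vehicle library 1, Gad2 was low at 2262 normalized counts, as were Glul at 900.2 and Bcl2l1 at 1342, while Ccng1 at 1603 and Ptma at 2356 were high. In library 2 the summed exon level of the fibroblast and meninges list was low at 13.4, against 17.4 to 18.0 in the others, and Th was high at 37.5 normalized counts. Library 3 was high for Frmd8, at 855, and Chrna7, at 1049, and low for Mbp, at 4235. Library 4 was high for the summed exon level of the radial glia and progenitor list, at 209, against 175 to 177, and for Pdgfra at 1422, Pdgfrb at 262, Htr2b at 169.5 and Adra1a at 758 normalized counts, and low for Tmsb15b2 at 45.2.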

How the results depend on the processing

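Without any 1 vehicle library the nuclear protein-coding share, the number of list genes present, the number of pairs in one order and the median CV stayed within 1.5 times their value or their SD; of the lists, the endothelial and pericyte one gave 2 genes present in place of 1 without vehicle library 2. Without mitochondrially encoded genes the nuclear protein-coding share was 86.2%. The number of list genes present was 292 by exon level, 182 at a level of at least 5 and 155 by gene span. Without division by length, the log2 ratio was 0.58 for Gria2 over Gria1, 2.09 for Pdgfra over Mog and -1.71 for Syn1 over Syn3. Each was of the opposite sign to its exon value, and Syn3 was overlap-uncertain. By gene span 5 pairs turned. Slc12a2 over Slc12a5 turned to -0.0301, Slc17a6 over Slc17a7 to -0.0831 and Gria2 over Gria1 to 1.96. Tmsb10 over Tmsb4x turned to 0.45 and Pdgfra over Mog to 0.23. For peptides against vehicle, 52 calls became 20 without the filter, 21 with library size scaling, 180 with DESeq2, 56 with edgeR's quasi-likelihood test and 3 with a replicate block, and between 1 and 80 without 1 library. Same-numbered libraries did not deviate together (r from -0.30 to 0.11), so the numbers were not taken to pair samples. The causes were not tested. For genes of 10 to 100 normalized counts the median CV was 41.4%, where counting alone gives 17.8%.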
